A study of Mus musculus with 4 samples.

Results

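The clustered histone genes of the mouse are the members here: every gene whose symbol begins with Hist1h, Hist2h, Hist3h or Hist4h in either of the 2 deposited tables of platelet RNA. There were 60 of them among 17995 genes listed in all, 50 in the table of WT and cKO, 58 in the table of Young and Old, and 48 in both. By class they were 5 genes of the linker histone H1, 15 of H2A, 17 of H2B, 10 of H3 and 13 of H4. The GENCODE vM21 annotation (GRCm38) holds 70 such genes, and all 60 members had the same gene bounds and strand there. 3 members are annotated pseudogenes (Hist1h2aj, Hist1h2al and Hist3h2bb-ps), which together had between 6 and 18 reads per library.

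Platelets are blood cells without a nucleus that seal injured vessels, and their RNA was read in 4 libraries, 1 per group. WT was a pool of wild-type males aged 3 months, and cKO a pool of their male littermates of the same age carrying a conditional, platelet-specific knockout of HuR, an RNA-binding protein encoded by Elavl1. Young was a pool of wild-type males aged 3 months and Old a pool of wild-type males aged 24 months. Each pool held the platelets of 7 mice. The sources used here give neither the Cre driver of the knockout nor the strain.

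The libraries held between 17702341 and 18472149 reads in listed genes. With 1 library per group nothing checks a difference against the spread between pools, and every 95% interval below is an exact Clopper-Pearson interval that covers counting error only. The words rose and fell are kept for a gene or sum with 100 or more reads in 1 of the 2 libraries compared, whose interval lay at least 2-fold from 1 throughout; this is called the size rule. Elavl1 was no lower under the cKO label: it had 876 reads in WT and 1481 in the library labelled cKO, a ratio of 1.66 (1.53 to 1.81), so every direction below that involves that library rests on a label its targeted gene goes against. Young had 621 Elavl1 reads, and the ratio of the library labelled cKO over Young was 2.62 (2.38 to 2.88). The counts are per gene, so reads from exons outside a deleted stretch would be counted too, and their part in these values was not tested. All 13 platelet markers looked for, among them Ppbp, Pf4, Itga2b and Itgb3, were present in all 4 libraries and made up between 53042 and 65700 RPM (reads scaled to its library's total). In platelet pools, fewer cells of a type and less RNA per cell cannot be told apart.

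Histones are the proteins that DNA is wound around: H2A, H2B, H3 and H4 form the core of the nucleosome and H1 binds the DNA that links nucleosomes. The clustered genes are made mostly while DNA is copied, carry no introns in their classical form, and give messenger RNAs that end in a conserved stem-loop, bound by the protein SLBP, in place of a poly(A) tail. Some of these genes also give a longer, polyadenylated RNA that runs past the stem-loop, a form known from cells that have left the cell cycle. Platelets have no nucleus and inherit their RNA from megakaryocytes, which copy their DNA repeatedly without dividing. The sources used here do not give whether RNA was poly(A)-selected or depleted of rRNA, nor whether reads were counted by strand.

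The stem-loop is shown for 7 members on which the results turn, because its position in the gene model decides whether the model covers an extended transcript. Capitals mark the 16 stem-loop letters (fixed letters GG, CTTTT, AG and CC in that order, with any bases in the gaps of 2, 1 and 2 between them, searched on the sense strand of GENCODE vM21 transcripts), with up to 5 bases on each side.
Hist1h1c: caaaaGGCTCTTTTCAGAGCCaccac
Hist1h2ac: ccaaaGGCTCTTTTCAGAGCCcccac
Hist1h2bh: ccaaaGGCTCTTTTCAGAGCCactca
Hist1h3c: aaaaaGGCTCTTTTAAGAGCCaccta
Hist1h4i: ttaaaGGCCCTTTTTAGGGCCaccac
Hist1h4m: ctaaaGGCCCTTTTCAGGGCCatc
Hist1h4n: ctaaaGGCCCTTTTCAGGGCCatcca
The annotated model of Hist1h1c went on for 840 bases past these letters, that of Hist1h2ac for 2010 and that of Hist1h4i for 330. Those of Hist1h4m and Hist1h4n ended 3 and 31 bases past them. The letters were found in 98 of 58797 annotated protein-coding transcripts, or 0.167%.

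Hist1h4m and Hist1h4n are copies with 0 differences over their 312 coding bases, so a read from that stretch cannot be assigned to either. Their first 90 coding bases, with the start codon in capitals, are shown because they stand for both genes.
Hist1h4m and Hist1h4n: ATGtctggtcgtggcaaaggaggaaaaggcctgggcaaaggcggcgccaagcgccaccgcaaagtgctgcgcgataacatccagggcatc
Both belong to an inverted duplicate on chromosome 13 (GRCm38), with Hist1h4m at 21811746 to 21812147 on the plus strand and Hist1h4n at 21831767 to 21832196 on the minus strand. The same duplicate holds the identical coding sequences of Hist1h2ao and Hist1h2ap (393 bases, 0 differences) and of Hist1h2bq and Hist1h2br (405 bases, 0 differences). Coding sequence here means the longest stretch from a start codon to a stop codon in any annotated transcript of the gene, and not the annotated coding sequence. The sources used here do not give the treatment of reads that map to several genes, so such copies are given as sums first.

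Clustered histone genes had 114145 reads in WT against 135318 in the library labelled cKO, and 139462 in Young beside 141718 in Old. This was 6349 RPM in WT against 7644 in the library labelled cKO, and 7686 in Young beside 7672 in Old, so WT was the lowest of the 4. The ratio of the summed reads, after scaling library sizes by the trimmed mean of M values (TMM), was 1.16 (1.16 to 1.17) for the library labelled cKO over WT, with 1.11 (1.10 to 1.12) for Old over Young. WT over Young, which compares wild-type pools of the same age across separately scaled tables, gave 0.894 (0.887 to 0.901). None of these 3 sums passed the 2-fold rule. Scaling by total reads put the total for Old over Young at 0.998, below 1, and moved the median log2 ratio of all genes with at least 20 reads from -0.06 to -0.22.

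The reads lay almost wholly in the Hist1 cluster on chromosome 13, which held between 98.8% and 99.3% of histone reads in each library. Hist3 on chromosome 11 had 867 reads in WT against 829 in the library labelled cKO, and 1021 in Young beside 1453 in Old. Hist2 on chromosome 3 had 96, 140, 161 and 227 reads in the same order, and Hist4 on chromosome 6 had 1, 2, 3 and 19. Old was the highest library for each of these 3 smaller clusters. For Old over Young the ratio was 1.56 (1.44 to 1.69) for Hist3 and 1.54 (1.26 to 1.90) for Hist2, neither past the rule.

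Within Hist1, the genes fall into stretches separated by over 100000 bases. The stretch from 23531050 to 23762386, which holds Hist1h1c and Hist1h2bc, had 97721 reads in WT against 110048 in the library labelled cKO, and 116185 in Young beside 116054 in Old. The stretch from 21715763 to 21837530, which holds the inverted duplicate, had 11334, 17759, 16424 and 17438. The ratio for the library labelled cKO over WT was 1.11 (1.10 to 1.12) in the first of these and 1.54 (1.503 to 1.58) in the other, and for Old over Young 1.09 (1.08 to 1.10) and 1.16 (1.14 to 1.19). The stretch between them, from 22035164 to 22043676, had 4126, 6535, 5667 and 6526 reads. Its ratios were 1.56 (1.496 to 1.62) and 1.26 (1.22 to 1.31), so the stretch with the duplicate did not stand alone. The remaining stretches had at most 5 reads per library.

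By class, H1 and H2B together made up between 75.5% and 81.9% of histone reads. H1 had 2284 RPM in WT against 3352 in the library labelled cKO, and 3638 in Young beside 3711 in Old, with WT well below the other libraries. H2B ran the other way, with 2917 RPM in WT against 2418 in the library labelled cKO, and 2582 in Young beside 2256 in Old. H4 had 685, 1269, 866 and 1133 RPM in that order, with the library labelled cKO and Old above WT and Young. H2A had 396, 536, 499 and 480 RPM, and H3 had only 66.8, 68.8, 101 and 91.2 RPM.

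**Figure D1:**
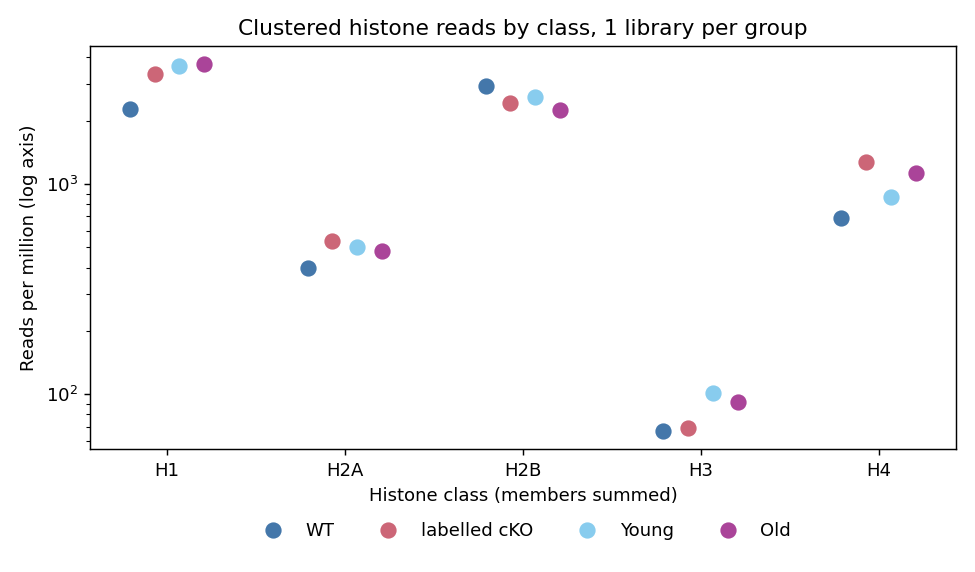
Level in RPM (log axis) of each histone class, members summed, in each of the 4 libraries, 1 point per library. H1 is lowest in WT (2284 RPM) and H2B highest there (2917 RPM), while H4 is higher in the library labelled cKO (1269) and Old (1133) than in WT (685) and Young (866).

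No class sum passed the 2-fold rule in either main comparison. For the library labelled cKO over WT, the ratio was highest for H4, at 1.79 (1.75 to 1.83), then 1.42 (1.40 to 1.44) for H1, 1.31 (1.27 to 1.35) for H2A, 0.996 (0.919 to 1.08) for H3 and 0.802 (0.792 to 0.812) for H2B. For Old over Young it was 1.46 (1.43 to 1.49) for H4, 1.14 (1.13 to 1.15) for H1, 1.07 (1.04 to 1.11) for H2A, 1.00 (0.937 to 1.07) for H3 and 0.974 (0.961 to 0.987) for H2B. With total reads in place of TMM, the Old over Young values of H2A and H3 were 0.963 and 0.899. WT over Young, 2 wild-type pools of the same age, gave 0.680 (0.671 to 0.688) for H1 and 1.22 (1.21 to 1.24) for H2B. The H1 and H2B values for the library labelled cKO against Young, in place of WT, were 0.986 (0.975 to 0.997) and 1.00 (0.989 to 1.02). For H4 the same ratio was 1.57 (1.54 to 1.60), and Old over WT was 1.70 (1.67 to 1.74). These comparisons share libraries and are not independent of one another.

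H1 was in effect a single gene. Hist1h1c (ENSMUSG00000036181, chromosome 13, 23738808 to 23740367, plus strand), which encodes the linker histone H1.2, had 41024 reads in WT against 59288 in the library labelled cKO, and 65941 in Young beside 68471 in Old. WT stands below the other libraries, and the other 4 H1 genes together had only between 40 and 83 reads per library. The ratio was 1.42 (1.40 to 1.44) for the library labelled cKO over WT, 1.14 (1.12 to 1.15) for Old over Young and 0.680 (0.671 to 0.688) for WT over Young. The other H1 genes included Hist1h1d with 30, 32, 31 and 36 reads and Hist1h1e with 9, 22, 28 and 47 in the same order of libraries. Neither reached the 100 reads that the rule asks for.

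H2B was led by Hist1h2bc (ENSMUSG00000018102, chromosome 13, 23684199 to 23692908, plus strand), whose annotated model is spliced and holds no stem-loop. It had 45430 reads in WT against 34866 in the library labelled cKO, and 36440 in Young beside 35039 in Old, with WT above the rest. Its ratio was 0.754 (0.744 to 0.765) for the library labelled cKO over WT, 1.05 (1.04 to 1.07) for Old over Young and 1.36 (1.34 to 1.38) for WT over Young. Hist1h1c and Hist1h2bc together made up 75.7% of histone reads in WT against 69.6% in the library labelled cKO, and 73.4% in Young beside 73.0% in Old. Per kilobase of gene model, Hist1h1c stood at 0.669 times Hist1h2bc in WT, 1.26 times in the library labelled cKO, 1.34 times in Young and 1.45 times in Old. WT is the library in which Hist1h2bc ranked first per kilobase among the members, and Hist1h1c ranked first in the other libraries. Without Hist1h2bc, the H2B ratio was 1.11 (1.08 to 1.15) for the library labelled cKO over WT, with 0.698 (0.677 to 0.720) for Old over Young.

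**Figure D2:**
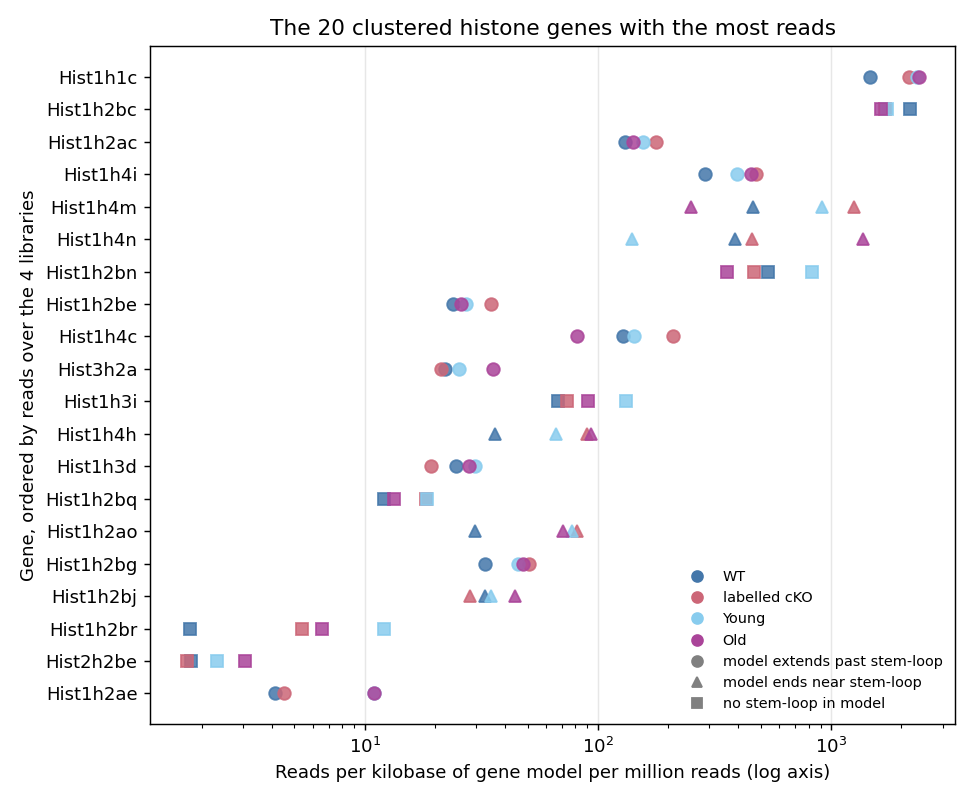
RPM per kilobase of gene model (log axis) for the 20 members with the most reads over the 4 libraries, 1 point per library, with the marker shape giving the kind of gene model. Hist1h1c and Hist1h2bc lie above 1000 in every library, and Hist1h4m and Hist1h4n spread widely between libraries.

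The promoters of these leading genes are shown because they hold most of the reads. That of Hist1h1c (RefSeq symbol H1f2, GRCm38.p6) lies at chr13:23738557-23738806 on the plus strand and covers the 250 bases before the start. Capitals mark the H1 box (AAACACA, known from promoters of H1 genes), a CCAAT box and overlapping TATATA matches.
Hist1h1c promoter: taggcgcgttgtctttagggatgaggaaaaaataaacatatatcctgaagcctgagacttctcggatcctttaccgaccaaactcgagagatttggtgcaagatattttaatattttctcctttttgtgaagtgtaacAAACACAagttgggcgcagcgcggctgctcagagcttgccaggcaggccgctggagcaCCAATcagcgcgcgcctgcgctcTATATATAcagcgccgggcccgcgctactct
Hist1h2bc shares the 250 bases between its start and that of Hist1h2ac, which is transcribed away from it. Nearly all of that stretch lies in the RefSeq promoter of Hist1h2ac (RefSeq symbol H2ac6, GRCm38.p6), which also runs a few bases past the annotated start of Hist1h2bc. That promoter is shown here, at chr13:23683960-23684209 on the minus strand. Capitals mark matches on either strand to CCAAT, to the octamer ATTTGCAT (known from H2B promoters, where it is bound by Oct1, encoded by Pou2f1) and to TATAAA.
Hist1h2ac promoter: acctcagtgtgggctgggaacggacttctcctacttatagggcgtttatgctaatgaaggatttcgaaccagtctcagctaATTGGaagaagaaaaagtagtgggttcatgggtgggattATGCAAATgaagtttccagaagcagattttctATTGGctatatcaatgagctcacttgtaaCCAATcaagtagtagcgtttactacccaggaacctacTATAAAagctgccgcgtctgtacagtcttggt
On both strands of 32851 RefSeq promoters of this length, AAACACA was found in 6.25%, CCAAT in 33.8%, TATATA in 5.25%, TATAAA in 12.4% and ATTTGCAT in 1.60%. A match is a description of the letters only.

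On the H2A side of that stretch, Hist1h2ac had 5806 reads in WT against 7760 in the library labelled cKO, and 6996 in Young beside 6485 in Old. The order was unlike that of Hist1h2bc, which was highest in WT. The ratio of Hist1h2ac was 1.31 (1.27 to 1.36) for the library labelled cKO over WT, with 1.02 (0.981 to 1.05) for Old over Young. In RPM per kilobase of gene model, Hist1h2ac stood at 130 in WT against 2186 for Hist1h2bc.

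GENCODE vM21 holds 14 such pairs of an H2A and an H2B gene transcribed away from each other, with between 172 and 305 bases between their starts, and both genes were listed for 11. The H2B gene stood above the H2A gene per kilobase in 9 of the 11 in WT against 9 in the library labelled cKO, and 8 in Young beside 7 in Old. No minimum of reads was set here, and the H2B genes include the pseudogene Hist3h2bb-ps. The count in Young differed through Hist1h2an and Hist1h2bp, with 10 and 7 reads there. In Old it differed through Hist1h2ai and Hist1h2bl (6 and 0 reads) and through Hist1h2ap and Hist1h2br (62 and 267 reads). Hist1h2bn had 3682 reads in WT against 3150 in the library labelled cKO, and 5714 in Young beside 2519 in Old, against 25, 0, 19 and 5 for its partner Hist1h2ak. The pair Hist1h2ao and Hist1h2bq ran the other way per kilobase in every library, with Hist1h2ao at 29.8 and Hist1h2bq at 12.1 RPM per kilobase in WT. Their gene models are 480 and 2015 bases long, and in WT Hist1h2bq had more reads, 437 against 257. Summed with their identical copies, the H2B genes had more reads than the H2A genes in every library, 508 against 266 in WT. Of the 50-base windows of Hist1h2bn, 86.4% occur in another annotated clustered histone gene, so its reads may not all be its own. The same holds for Hist1h2ao, with 93.5% of windows shared, and Hist1h2bq, with 97.3%.

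H4 was spread over more genes. Hist1h4m and Hist1h4n summed had 6318 reads in WT against 12411 in the library labelled cKO, and 7774 in Young beside 12748 in Old, which placed the library labelled cKO and Old above WT and Young. The ratio of this sum was 1.93 (1.87 to 1.99) for the library labelled cKO over WT, with 1.80 (1.75 to 1.85) for Old over Young, both short of the rule, and 0.888 (0.859 to 0.918) for WT over Young. Hist1h4i, the next H4 gene by reads, had 3772, 6146, 5196 and 6091 reads in the same order, a ratio of 1.60 (1.54 to 1.67) for the library labelled cKO over WT, with 1.28 (1.24 to 1.33) for Old over Young. Hist1h4c had 1882, 3059, 2121 and 1229 reads and was lowest in Old. The H4 class without the 2 copies had a ratio of 1.65 (1.60 to 1.70) for the library labelled cKO over WT, with 1.13 (1.09 to 1.16) for Old over Young.

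Singly, the 2 copies diverged far more than their sum. Hist1h4m had 3335 reads in WT against 8924 in the library labelled cKO, and 6678 in Young beside 1853 in Old. Hist1h4n had 2983, 3487, 1096 and 10895 in the same order. Old is thus the only library of the 4 with fewer reads in Hist1h4m than in Hist1h4n. The share of the pair's reads assigned to Hist1h4m was 52.8% (51.5% to 54.0%) in WT, 71.9% (71.1% to 72.7%) in the library labelled cKO, 85.9% (85.1% to 86.7%) in Young and 14.5% (13.9% to 15.2%) in Old. WT and Young, both wild-type pools of the same age, differed in this share beyond counting error. In Old over Young, Hist1h4n rose 10.9-fold (10.2 to 11.6) and Hist1h4m fell to a ratio of 0.304 (0.288 to 0.320). Hist1h4m shared 89.8% of its 50-base windows with Hist1h4n, so neither single value can be taken as that gene's own level.

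**Figure D3:**
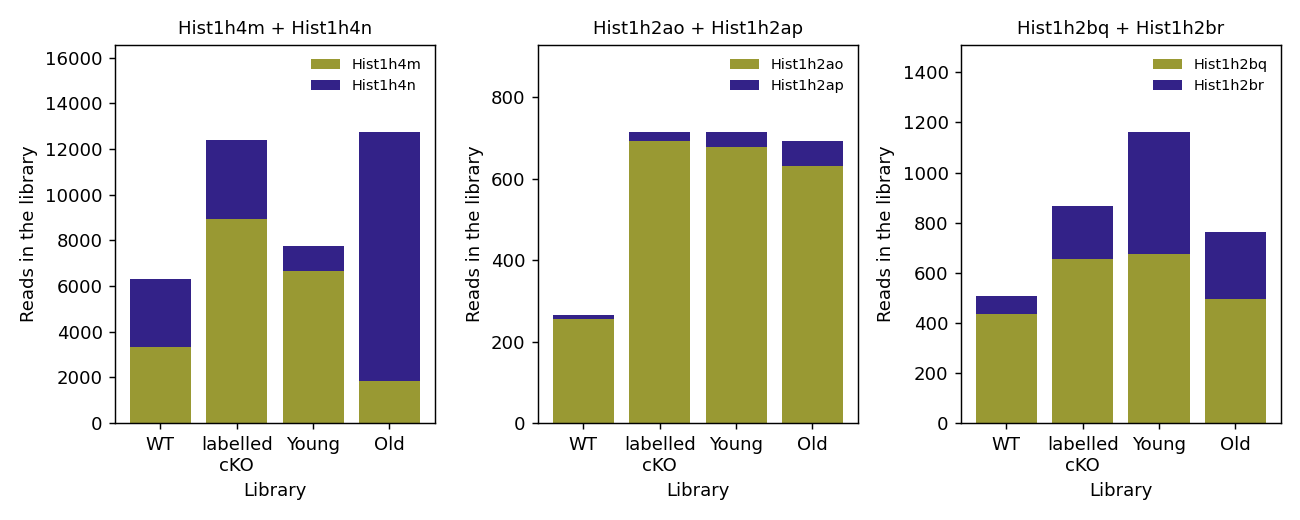
Reads in each library for 3 pairs of genes with identical coding sequences, stacked by the copy they were assigned to. The summed H4 pair is higher in the library labelled cKO (12411 reads) and Old (12748) than in WT (6318) and Young (7774), and the part assigned to Hist1h4m is smallest in Old (14.5%).

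The H2A copies Hist1h2ao and Hist1h2ap summed had 266 reads in WT against 714 in the library labelled cKO, and 715 in Young beside 693 in Old. WT stood alone below 3 nearly equal libraries. The sum rose 2.64-fold (2.29 to 3.05) in the library labelled cKO over WT, was 1.06 (0.955 to 1.18) for Old over Young, and fell to a ratio of 0.407 (0.352 to 0.469) in WT over Young. Against Young in place of WT, the library labelled cKO had a ratio of 1.10 (0.986 to 1.22), so the call rests on WT. The neighbouring H2B copies Hist1h2bq and Hist1h2br summed had 508, 866, 1162 and 763 reads, again lowest in WT. Their ratio was 1.67 (1.499 to 1.87) for the library labelled cKO over WT, 0.719 (0.655 to 0.788) for Old over Young and 0.478 (0.430 to 0.531) for WT over Young.

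H3 was the class with the fewest reads of the 5. Hist1h3i had 496 reads in WT against 538 in the library labelled cKO, and 982 in Young beside 685 in Old, and Hist1h3d had 551, 426, 671 and 646. Both were highest in Young. Hist1h3c (chromosome 13, 23744973 to 23745602, on the minus strand) was counted at 19 reads in WT against 104 in the library labelled cKO, and 41 in Young beside 182 in Old. It rose 5.38-fold (3.28 to 9.29) in the library labelled cKO over WT and 4.86-fold (3.45 to 7.00) in Old over Young, the one member to rise in both. Against Young in place of WT the ratio of Hist1h3c in the library labelled cKO was 2.78 (1.92 to 4.10), short of the rule, and Old over WT was 9.60 (5.97 to 16.3). Hist2h3c2, the one listed H3 gene of the Hist2 cluster, had 11, 60, 43 and 73 reads, too few for the rule.

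Counting single members, 21 of the 60 had at least 100 reads in WT or the library labelled cKO. Of these 5 rose (Hist1h2ao, Hist1h2br, Hist1h3c, Hist1h4h and Hist1h4m) and 0 fell in the library labelled cKO over WT, where 2.52% of the 6273 genes with that many reads rose and 1.71% fell. Hist1h4m and Hist1h2br are single copies, and the sums with their copies, at 1.93 and 1.67, did not pass the rule. The sum of Hist1h2ao and its copy did, at 2.64. With a minimum of 20 reads in place of 100, 7 of 39 members were higher and 1 lower, against 2.9% and 2.49% of all genes. With no minimum they were 7 and 1 of 50, against 2.56% and 2.54%. Hist1h4h, an H4 gene, had 307 reads in WT against 748 in the library labelled cKO, and 563 in Young beside 808 in Old, a rise in the former pair of 2.39-fold (2.09 to 2.74). Of its 50-base windows, 45.8% occur in another annotated clustered histone gene. Hist1h4m rose 2.63-fold (2.53 to 2.74) and Hist1h2br, with 71 and 211 reads, 2.92-fold (2.22 to 3.88). With Young in place of WT none of the 5 passed the rule: the ratio was 1.12 (1.01 to 1.25) for Hist1h2ao, 0.474 (0.402 to 0.558) for Hist1h2br, 1.46 (1.305 to 1.63) for Hist1h4h and 1.47 (1.42 to 1.51) for Hist1h4m. In that comparison 1 member rose (Hist1h4n) and 1 fell (Hist1h2bh) of 25 with enough reads, against 2.07% and 0.793% of all genes. Hist1h4n summed with Hist1h4m had a ratio of 1.75 (1.70 to 1.80) there, short of the rule. The median log2 ratio of the 41 members with at least 20 reads was 0.50 for the library labelled cKO over WT, beside -0.01 for all genes, and -0.020 with Young in place of WT.

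In Old over Young, 24 members had at least 100 reads in either library. There 2 rose (Hist1h3c and Hist1h4n) and 3 fell (Hist1h2bh, Hist1h2bk and Hist1h4m), where 4.26% of 6519 genes rose and 4.3% fell. Hist1h4n and Hist1h4m are copies of each other, and their sum, at 1.80, did not pass the rule. With no minimum of reads, 5 of 58 members were higher and 5 lower, against 5.49% and 5.25% of all genes. Hist1h2bh, an H2B gene, had 16 reads in WT against 23 in the library labelled cKO, and 113 in Young beside 7 in Old, so it was Young that stood apart. Its level in Old was 14.7-fold lower (6.93 to 37.5) than in Young, and WT over Young gave a ratio of 0.155 (0.0855 to 0.262). Hist1h2bk, another H2B gene, had 70, 133, 148 and 33 reads and fell to a ratio of 0.244 (0.162 to 0.358). With WT in place of Young the ratios were 0.438 (0.153 to 1.13) for Hist1h2bh, 0.472 (0.302 to 0.724) for Hist1h2bk and 0.557 (0.526 to 0.589) for Hist1h4m, all short of the rule. Hist3h2a, the one listed H2A gene of the Hist3 cluster, had 851, 806, 990 and 1404 reads, a ratio of 1.55 (1.43 to 1.69) for Old over Young, though its model overlaps Trim17. The median log2 ratio of 39 members was 0.08, beside -0.06 for all genes.

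**Figure D4:**
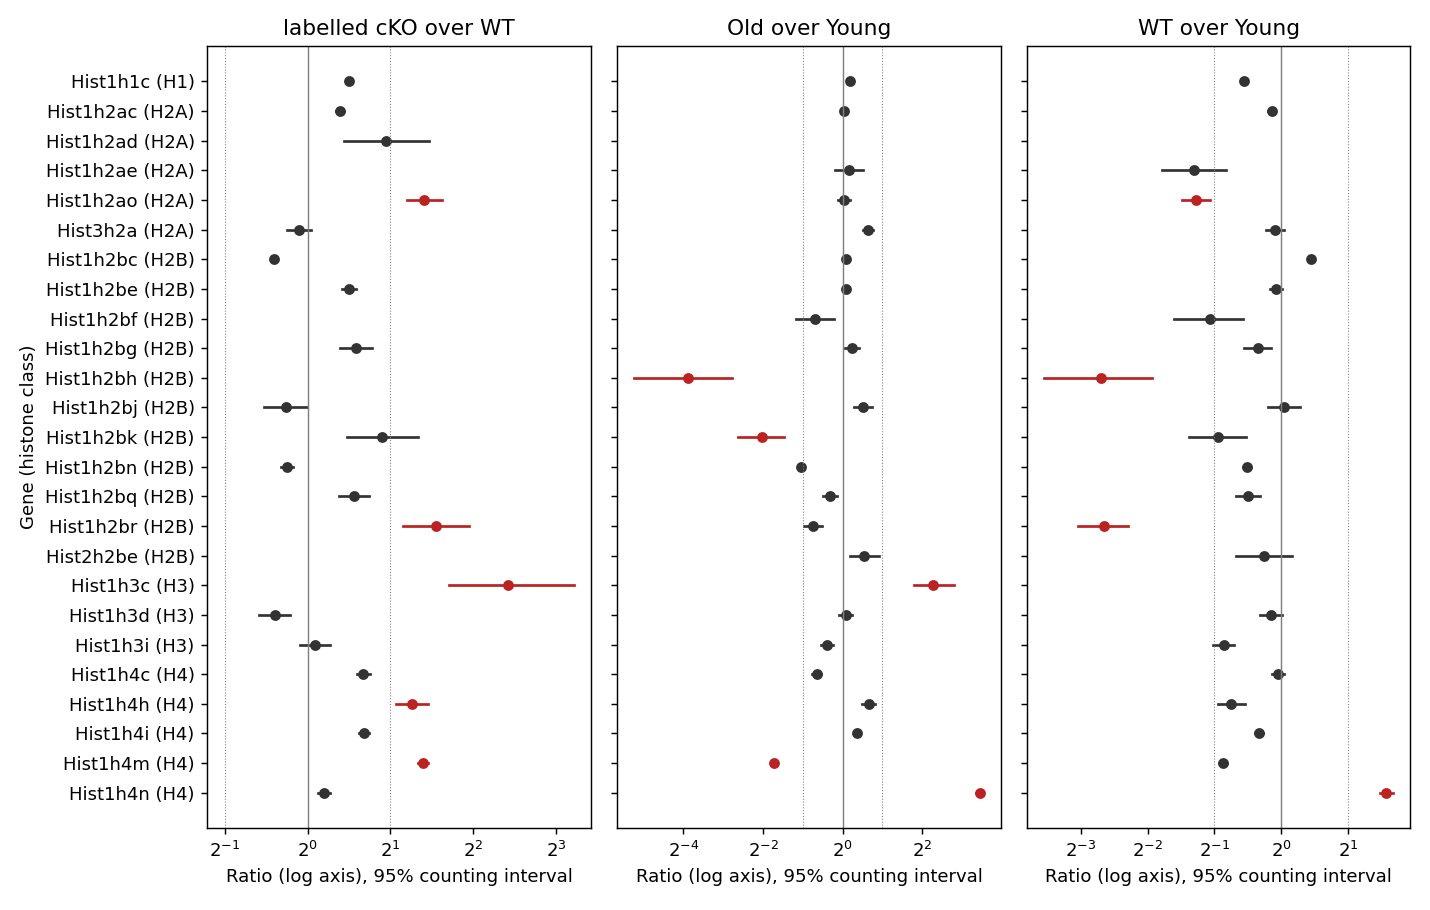
Ratio of reads over TMM-scaled library sizes (log axis, dotted lines at 2-fold) with 95% counting intervals, for members with at least 100 reads in 1 of the libraries compared; members past the size rule are red. In the library labelled cKO over WT the 5 red members all lie above 1, and in Old over Young 2 lie above and 3 below.

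WT over Young gives the size of difference seen between wild-type pools of the same age. Of 23 members with enough reads, 1 rose (Hist1h4n, 2.97-fold, 2.77 to 3.19) and 3 fell (Hist1h2ao, Hist1h2bh and Hist1h2br), where 0.439% of 6373 genes rose and 0.565% fell. Summed with their copies, Hist1h4n had a ratio of 0.888 and Hist1h2br 0.478 (0.430 to 0.531), neither past the rule. Hist1h2ao summed with its copy had 0.407 (0.352 to 0.469), past the rule. Hist1h2br had 71 reads in WT and 488 in Young, a ratio of 0.159 (0.122 to 0.204). The median log2 ratio of 40 members was -0.40, beside -0.0038 for all genes. Old over WT, which shares Old and WT with the comparisons above, had 5 members that rose (Hist1h2ao, Hist1h2br, Hist1h3c, Hist1h4h and Hist1h4n) and 0 that fell of 21, against 4.58% and 4.22% of all genes. Summed with their copies, Hist1h2br had a ratio of 1.51 (1.34 to 1.69) and Hist1h4n 2.02 (1.96 to 2.08), neither past the rule. Hist1h2ao summed with its copy had 2.61 (2.26 to 3.02), past the rule.

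The authors' deposited table gave an adjusted p under 0.05 to 7 of the 50 members listed for the library labelled cKO over WT, 6 of them higher (Hist1h2ao, Hist1h2br, Hist1h3c, Hist1h4k, Hist1h4m and Hist2h3c2) and 1 lower (Hist1h2ak). Over all genes listed there, 2.05% were higher and 1.74% lower. For Old over Young the authors' deposited table had 5 of 58 members higher (Hist1h3c, Hist1h3e, Hist1h3g, Hist1h4n and Hist4h4) and 5 lower (Hist1h2an, Hist1h2bh, Hist1h2bk, Hist1h2bl and Hist1h4m), where 5.88% of all genes were higher and 6.51% lower. Hist1h2ak had 25 reads in WT and 0 in the library labelled cKO. Against the floor of 3 reads it was at least 8.48-fold lower, which leaves out the counting error of the 25 reads, and the bound of the 95% interval was 6.40-fold lower. The sources used here do not say which test gave these values, and any such test sets 1 library against another and not the conditions.

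Gene models divide the members by where the annotated transcript ends. In 21 members the model ran at least 100 bases past the stem-loop, and these held 49.4% of histone reads in WT against 59.9% in the library labelled cKO, and 61.0% in Young beside 61.7% in Old. In 18 the model ended within 100 bases of it, with 6.61%, 10.8%, 7.11% and 10.7% of reads in the same order. The short models were thus highest in the library labelled cKO and Old, where Hist1h4m and Hist1h4n together are highest. In 21 members the model held no stem-loop letters, with 44.0%, 29.2%, 31.9% and 27.7% of reads, most of it Hist1h2bc. The ratio for the library labelled cKO over WT was 1.41 (1.40 to 1.43) for extended models, 1.91 (1.86 to 1.97) for short ones and 0.774 (0.763 to 0.784) for those without the letters. For Old over Young the same ratios were 1.13 (1.11 to 1.14), 1.67 (1.62 to 1.71) and 0.965 (0.952 to 0.978). For these comparisons Hist1h1c alone had 1.42 and 1.14, and the 2 H4 copies summed had 1.93 and 1.80. The extended and short ratios thus rest mostly on these genes, and ratios without them were not computed. The tables count reads per gene, so where along a gene the reads lay was not measured.

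Sequence shared between members limits how far single genes can be read. In 14 members at least 80% of the 50-base windows occur in another annotated clustered histone gene, and these held between 9.89% and 13.1% of histone reads. In 13 members, Hist1h1c and Hist1h2ac among them, under 20% of windows are shared, and these held between 45.2% and 56.4%. Among the members with little sharing and at least 100 reads, the ratio for the library labelled cKO over WT ran from 0.930 to 1.60 over 5 genes, and among those with most sharing from 0.840 to 2.92 over 7. For Old over Young the ranges were 0.0678 to 1.55 over 7 genes and 0.304 to 10.9 over 7. The 33 members between these bounds, Hist1h2bc among them, held between 31.3% and 44.9% of histone reads. Their ratios ran from 0.754 to 5.38 over 9 genes for the library labelled cKO over WT, the widest range of all. For Old over Young they ran from 0.244 to 4.86 over 10, so the ranges did not widen steadily with sharing.

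Of 20 nonclustered histone and variant genes, most of which give polyadenylated RNA throughout the cell cycle, 12 were listed. H3f3a had 9303 reads in WT against 14202 in the library labelled cKO, and 12759 in Young beside 11133 in Old, H3f3b had 3864, 3551, 4691 and 4058, and H2afz had 943, 1012, 1455 and 1218. Among those with at least 100 reads, 0 rose and 0 fell of 8 in the library labelled cKO over WT, and in Old over Young 1 of 9 rose (H3f3c, 2.94-fold, 2.29 to 3.80) and 0 fell. Over all genes the shares were 2.52% and 1.71% in the former comparison, and 4.26% and 4.3% in the latter. H2afj, an H2A variant, had 416, 801, 714 and 736 reads, lowest in WT.

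Genes that act on histone messenger RNA (transcription, 3′ end processing and decay) were listed for 27 of 30. None of 13 with enough reads rose or fell in the library labelled cKO over WT, with Upf1, a helicase of RNA decay, at 316 reads in WT and 702 in the library labelled cKO, a ratio of 2.18 (1.91 to 2.50). In Old over Young 0 of 12 rose and 2 fell: Cpsf3, the endonuclease that cuts the 3′ end, to a ratio of 0.352 (0.279 to 0.441), and Pou2f1 to 0.294 (0.208 to 0.408). The median log2 ratio of this list was -0.10 for the library labelled cKO over WT, with -0.60 for Old over Young. Of 22 histone chaperone genes listed, 0 of 16 rose or fell in either main comparison, and their median log2 ratio was 0.03 for the library labelled cKO over WT, with -0.75 for Old over Young. Of 30 S phase and dividing-cell genes, 3 of 14 rose in the library labelled cKO over WT (E2f2, Nusap1 and Ube2c) and 0 fell, and 0 of 15 rose or fell in Old over Young. Over all genes with enough reads, 2.52% rose and 1.71% fell in the former comparison, and 4.26% and 4.3% in the latter. The median log2 ratio of the S phase list was 0.07 for the library labelled cKO over WT, with -0.12 for Old over Young. E2f2 had 308 reads in WT against 1084 in the library labelled cKO, and 495 in Young beside 402 in Old, so it was the library labelled cKO alone that stood high.

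Of 19 RNAs on a list of transcripts without a long poly(A) tail, 3 were listed: the small nuclear RNA Rn7sk, with 1, 13, 7 and 9 reads in WT, the library labelled cKO, Young and Old, and the mitochondrial ribosomal RNAs, which carry short tails. Of the latter, mt-Rnr1 had 22312, 11784, 11158 and 34056 reads and rose 3.34-fold (3.27 to 3.41) in Old over Young, with WT also high. mt-Rnr2 had 105703, 72699, 72732 and 101588 reads. Their part in the histone values was not tested.

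Markers of other blood cells moved between the same libraries. The counts below stand beside 2.52% of all genes with enough reads that rose and 1.71% that fell in the library labelled cKO over WT. In Old over Young these shares were 4.26% and 4.3%. Of 22 erythroid markers 21 were listed, and their summed level was 8571 RPM in WT against 17109 in the library labelled cKO, and 22209 in Young beside 11850 in Old, with only Klf1 at 0 in Young and none at 0 elsewhere. WT was the lowest library for this sum and Young the highest. Of 15 with enough reads, 12 rose in the library labelled cKO over WT, among them Alas2, 3.69-fold (3.58 to 3.80), and Slc4a1, 7.14-fold (6.58 to 7.76), and 1 fell (Hba-a2). In Old over Young 1 of 14 rose (Sptb) and 1 fell (Hbb-bt). Neutrophil markers, 15 of 17 listed, summed to 68.9, 41.4, 32.1 and 839 RPM in that order, and 10 of 10 rose in Old over Young, S100a9 by 40.1-fold (34.6 to 46.8). Camp, Ltf, Ly6g and Mpo were at 0 in each of WT, the library labelled cKO and Young, Ngp was at 0 in WT and the library labelled cKO, Lcn2 in the latter only, and none of the listed markers was at 0 in Old. B cell markers, all 13 listed, summed to 690, 616, 562 and 151 RPM, and 8 of 12 fell in Old over Young. Monocyte and macrophage markers (12 of 13 listed) summed to between 4138 and 5022 RPM, of which 3 of 7 rose in Old over Young (Ccr2, Cd14 and Csf1r), and T and NK cell markers (all 14 listed) to between 55.9 and 108 RPM, of which 2 of 7 fell there (Gzma and Trac). Of 10 megakaryocyte transcription factors 0 rose or fell in the library labelled cKO over WT, and Runx1 fell in Old over Young, to a ratio of 0.414 (0.384 to 0.446). The part of these cells in the histone values was not tested.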

How the data were processed

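Platelet RNA was measured in 4 libraries, 1 per group. The submitters' processing notes name the build mm10 and the tools HISAT2 2.0.5, DESeq2 1.20.0, CASAVA and featureCounts 1.5.0-p3, with no role given. The authors deposited 2 tables whose signal per gene and library is a read count scaled within that table. Dividing by the step of each library gave whole reads (100% of values, within 0.02 read), and these recovered reads were used. The authors' deposited log2 fold changes, p-values and adjusted p-values are quoted as theirs, and 4 per-sample columns that match no sample were not used. A table lists no gene whose 2 libraries hold under 2 reads together, and an unlisted gene was taken as 0 in comparisons across tables.

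Library sizes were scaled per pair by TMM (edgeR 4.0.16, R 4.3.3). The ratio of reads over scaled sizes has an exact 95% Clopper-Pearson interval (scipy 1.17.1), covering counting error only, since amplified reads are not counted molecules. No p-value was computed, because each group has 1 library. A library at 0 was set to a floor of 3 reads, between 0.162 and 0.169 RPM. Medians use a pseudocount of 0.5 read. Alternatives were DESeq2 (1.42.0) size factors, total reads, other minimums, bounds and pseudocounts, leaving out the leading member, and, chosen after seeing the data, the other young wild-type library as denominator.

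Genes named were drawn from the 20 members with the most reads, members past the size rule, and 12 context lists. Of each list these were the members past the rule and the 4 with the most reads. Not every gene that qualified is named in the text, so those named are a selection. Class and cluster sums were also given, and other genes were named after their values were seen. Members and lists were chosen with earlier results of these data known. Recovery and rule were tested on simulated data. Sequences are from GENCODE vM21 (57 of 60 deposited lengths equal its longest transcript) and RefSeq, where 51 members matched a promoter entry.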

Additional observations from a re-analysis of the deposited data

How the results depend on the processing

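No paired analysis was possible because each group has 1 library and the labels give no replicate numbers. For the same reason no replicate was left out. No class sum passed the size rule under any setting run.

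With DESeq2 size factors, the library labelled cKO over WT had ratios of 1.19 for all members, 1.45 for H1 and 0.816 for H2B, and Old over Young 1.14, 1.16 and 0.994. With total reads, the first comparison gave 1.204 for all members, 1.47 for H1, 1.35 for H2A, 0.829 for H2B and 1.85 for H4, and Old over Young 0.998, 1.02, 0.963, 0.874 and 1.31, with 0.899 for H3. Without the leading member, the library labelled cKO over WT gave 1.02 for all members. It gave 1.38 (0.900 to 2.12) for H1 (Hist1h1c left out), 1.11 for H2B (Hist1h2bc) and 1.48 for H4 (Hist1h4m). Old over Young then gave 1.09 for all members, 1.36 (0.971 to 1.90) for H1 and 1.27 for H2A (Hist1h2ac). It gave 0.698 for H2B, 1.27 for H3 (Hist1h3i) and 0.752 for H4 (Hist1h4n), the last leaving Hist1h4m without its copy. The H1 values here rest on between 40 and 83 reads per library, and their intervals include 1.

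Young in place of WT, an alternative chosen after seeing the data, gave ratios for the library labelled cKO of 1.06 for all members, 0.986 for H1, 1.15 for H2A, 1.00 for H2B, 0.726 for H3 and 1.57 for H4. The count of members past the size rule went from 5 higher and 0 lower to 2, 1 in each direction, and the median log2 ratio from 0.50 to -0.020. With WT in place of Young, Old had ratios of 1.24, 1.67, 1.25, 0.796, 1.41 and 1.70 for the same sums in that order, and a median log2 ratio of 0.46. For the library labelled cKO over WT the count was 8 (7 higher, 1 lower) both with a minimum of 20 reads and with none, and for Old over Young it was 10 (5 higher, 5 lower) with none. The cause of these differences was not tested.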
